A study of Mus musculus with 6 samples.

Results

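The liver transcripts of 9 enzymes that carry acetyl-CoA to squalene and its epoxide were examined in KPF and WPF dams. The 9 genes were Acat2, Hmgcs1, Mvk, Pmvk, Mvd, Idi1, Fdps, Fdft1 and Sqle. They were chosen by name from the pathway and not from their values, although earlier results of these data were known. Each was found by its Ensembl ID among the 56691 genes of the deposited table. The list does not hold every enzyme of the route. KPF dams (hChrebp-KO, 3 libraries, replicates 1, 2 and 3) were Chrebp flox/flox mice carrying Alb-Cre. The study states that this removes the gene's function in hepatocytes. Recombination in the other cells of the liver is not described in the sources used here. WPF dams (3 libraries, replicates 2, 3 and 4) are labelled WT, while the methods of the study describe the controls as Chrebp flox/flox mice without Cre, so both groups carried the floxed allele. All dams were pregnant, received HFrD (a high-fructose diet) from mating and were killed late in gestation. The age of the dams is not given in the sources used here. ChREBP, encoded by Mlxipl, is a transcription factor that is activated by sugar metabolites and drives genes of glycolysis and fatty acid synthesis, and the comparison asks how the liver transcriptome differed when hepatocytes lacked it under fructose feeding. The study describes its replicates as biological, while the labels do not tie each library to a dam, and the p-values measure the spread between these libraries.

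In the mevalonate route, acetyl-CoA units are joined to acetoacetyl-CoA and then to HMG-CoA, which is reduced to mevalonate. Mevalonate is phosphorylated and decarboxylated to the isoprene unit, and isoprene units are condensed to farnesyl diphosphate, the branch point between sterols and the lipids of protein prenylation, dolichol and ubiquinone. Farnesyl diphosphate is committed to sterols when it is joined head to head into squalene, which is then oxidised. In the liver these genes are textbook targets of SREBP-2, a transcription factor that is released from the endoplasmic reticulum when sterols are scarce and binds sterol regulatory elements together with NF-Y, which binds CCAAT.

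The libraries held 10694496 to 11567941 counted reads in KPF and 12988865 to 14496630 in WPF. In CPM (counts scaled by library size and TMM factor), Mlxipl was at 182, 709 and 860 in KPF replicates 1, 2 and 3 and at 891 to 1280 in WPF, with no overlap but a log2 fold change of -0.84 that did not pass the test (adjusted p = 0.584, edgeR). Its counts cover the whole gene and not the deleted exon alone. Hepatocyte markers summed to 81400 to 108000 CPM in KPF and 105000 to 175000 CPM in WPF, and 0 of the 7 measured were called (1 without KPF replicate 2, Ttr, lower at -1.48 on the log2 scale). Some libraries stood apart. KPF replicate 2 held 2280 CPM of 4 striated muscle transcripts (Acta1, Ckm, Myh4, Tnnt3), or 0.224% of its reads, against 0.965 to 8.41 CPM in the other libraries. The clock output gene Dbp was high in KPF replicates 1 and 2 and WPF replicate 4 (38.8, 208 and 288 CPM) and low in KPF replicate 3 and WPF replicates 2 and 3 (5.94, 2.01 and 1.57 CPM), and the clock activator Arntl was low where Dbp was high (2.41, 1.08 and 1.48 CPM, against 26.6, 21.2 and 31.3 CPM). The results are therefore given with and without KPF replicate 2. The part of muscle RNA and of clock phase in the results was not tested.

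The promoters were read for a few fixed strings of letters: those of the sterol regulatory element, CCAAT and the E-box core. Of the 9 genes, 6 had a promoter in the RefSeq table (build GRCm38.p6, 250 bases before to 50 after the start), with a pair for Pmvk, and Fdps, Fdft1 and Sqle had none. Among the 6 genes searched, Hmgcs1 had the only match to TCACNCCAC, the longer sterol element searched, and Mvk the most CCAAT boxes. Their promoters are printed below, with those of Acat2 and Pmvk, the genes called lower in KPF. Capitals mark matches on either strand to TCACNCCAC or its core CACNCCAC (sterol regulatory element, the core lying inside the longer form) and to CCAAT, which reads ATTGG on the opposite strand.
Hmgcs1, chr13:119690101-119690400, plus strand: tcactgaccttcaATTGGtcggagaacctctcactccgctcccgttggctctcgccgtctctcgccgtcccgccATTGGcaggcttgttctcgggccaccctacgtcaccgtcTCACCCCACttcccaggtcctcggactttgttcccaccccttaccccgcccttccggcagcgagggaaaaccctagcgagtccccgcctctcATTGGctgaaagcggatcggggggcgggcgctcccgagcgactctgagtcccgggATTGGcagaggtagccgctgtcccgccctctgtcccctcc
Mvk, chr5:114444019-114444318, plus strand: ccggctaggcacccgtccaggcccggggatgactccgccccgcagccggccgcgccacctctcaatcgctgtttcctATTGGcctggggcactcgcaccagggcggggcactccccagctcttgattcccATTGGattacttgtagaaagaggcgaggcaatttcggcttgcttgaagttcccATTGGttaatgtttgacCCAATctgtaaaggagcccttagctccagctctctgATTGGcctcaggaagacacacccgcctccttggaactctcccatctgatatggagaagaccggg
Acat2, chr17:12960676-12960975, minus strand: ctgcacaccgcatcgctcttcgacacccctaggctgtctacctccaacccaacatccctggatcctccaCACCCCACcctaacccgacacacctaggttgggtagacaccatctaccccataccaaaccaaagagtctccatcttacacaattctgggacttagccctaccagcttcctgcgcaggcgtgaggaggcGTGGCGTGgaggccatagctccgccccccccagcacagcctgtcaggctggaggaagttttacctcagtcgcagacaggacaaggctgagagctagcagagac
Pmvk promoter 1, chr3:89454291-89454590, plus strand: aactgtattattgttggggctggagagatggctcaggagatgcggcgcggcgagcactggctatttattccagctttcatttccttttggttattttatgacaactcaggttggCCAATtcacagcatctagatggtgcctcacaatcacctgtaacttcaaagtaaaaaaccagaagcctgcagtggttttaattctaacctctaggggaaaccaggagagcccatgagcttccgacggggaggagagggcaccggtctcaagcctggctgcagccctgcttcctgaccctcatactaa
Pmvk promoter 2, chr3:89459321-89459620, plus strand: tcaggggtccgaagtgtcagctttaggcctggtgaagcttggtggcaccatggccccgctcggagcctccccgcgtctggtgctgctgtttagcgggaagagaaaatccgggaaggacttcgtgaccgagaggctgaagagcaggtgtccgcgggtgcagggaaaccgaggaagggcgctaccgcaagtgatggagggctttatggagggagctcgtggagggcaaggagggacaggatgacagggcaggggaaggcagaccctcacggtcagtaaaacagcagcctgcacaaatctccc

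The Hmgcs1 promoter held TCACCCCAC at -137 to -129 from the start and 4 CCAAT boxes. TCACNCCAC occurs in 1.24% of the 32851 promoters of the table, and 4 or more CCAAT boxes occur in 1.06%. The Mvk promoter held 5 CCAAT boxes, a number reached by 0.271% of promoters, and shared 259 bases with the promoter of Mmab, a cobalamin enzyme gene read in the opposite direction from the same stretch. Acat2 held 2 core matches, as 0.475% of promoters do, and no CCAAT. Mvd and Idi1 each held 2 CCAAT boxes, a number reached by 11.7% of promoters, whereas Pmvk held 1 in its first promoter, as 37.4% of promoters do at least, and none of the searched letters in its second. CACGTG, the E-box core, occurs in 7.15% of promoters and in none of these 7. With so low a share, its absence from 7 promoters says nothing about sites of ChREBP. These are exact matches of letters in a fixed window. Other forms of the sterol element and of the E-box were not searched, and binding was not measured.

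The route was transcribed at very uneven levels. On the FPKM scale, which divides counts by exonic length and library total, Hmgcs1 stood highest in WPF at 155 ± 37.8 FPKM (SD, n = 3) and Idi1 lowest at 1.20 ± 0.394 FPKM (SD, n = 3). Between them came Fdps at 58.8 ± 29.0, Mvd at 48.2 ± 15.8, Fdft1 at 25.0 ± 10.0, Acat2 at 21.9 ± 6.52, Pmvk at 16.6 ± 5.58, Sqle at 6.88 ± 2.67 and Mvk at 4.55 ± 1.70 FPKM (SD, n = 3 each). Only 3 steps of this order separated neighbours whose WPF values did not overlap: Hmgcs1 above Fdps, Pmvk above Sqle, and Mvk above Idi1. In KPF the order was the same at the top and bottom, with Hmgcs1 at 174 ± 122 and Idi1 at 1.42 ± 0.816 FPKM (SD, n = 3). Mvd and Fdps changed places at ranks 2 and 3. Pmvk moved from rank 6 to 7, Sqle from 7 to 8 and Mvk from 8 to 6. The KPF means of Mvk and Pmvk were nearly level, at 6.98 ± 5.49 and 6.87 ± 1.84 FPKM (SD, n = 3). Mvk was at 13.32, 3.62 and 4.01 FPKM in KPF replicates 1, 2 and 3. The plot of FPKM levels shows KPF replicate 2 at the bottom of the KPF points for every gene.

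**Figure D1:**
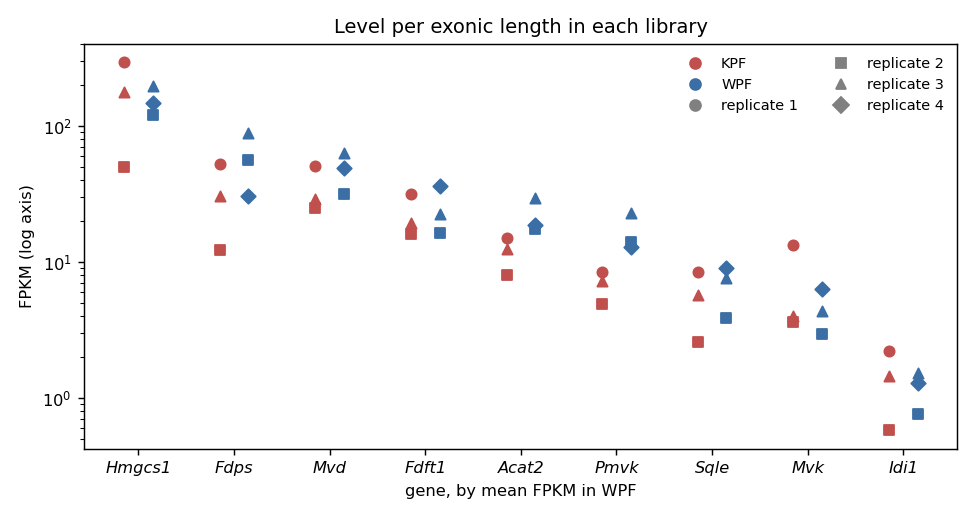
FPKM of the 9 enzymes in each library on a log axis, ordered by the WPF mean (red KPF, blue WPF, marker shape the replicate). Hmgcs1 lay at 50.2 to 293 FPKM in KPF and 121 to 196 FPKM in WPF, and Idi1 at 0.58 to 2.21 and 0.77 to 1.54 FPKM.

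Pmvk (-1.14 on the log2 scale) and Acat2 (-0.75) were lower in KPF, and the other 7 genes, between -0.78 and 0.76 on the log2 scale, were not called. A gene was called when edgeR's unadjusted p was under 0.05 and the change was at least 1.5-fold. No gene of the 10866 tested passed an adjusted p under 0.05 in edgeR (1176, or 10.8%, had an unadjusted p under 0.05, and DESeq2 gave 156 adjusted calls). Of the 9 genes 2 were called lower, where 3.98% of all tested genes were, and 0 were called higher, where 5.83% were, so 2 of 9 were called either way beside 9.81% of all tested genes. The median log2 fold change of the 9 genes was -0.13, beside 0.02 over all tested genes. Leaving out KPF replicate 2, 1 gene was called lower (Pmvk) and 1 higher (Mvk), where 4.48% and 5.06% of all tested genes were called, 9.54% either way, and 9.90% had an unadjusted p under 0.05. The median then turned to 0.20, beside -0.01 over all tested genes. Scaling by library totals shifted the median of all genes to -0.12 and that of the 9 genes to -0.31. The groups did not overlap for 2 of 9 genes, where 15.7% of all tested genes did not, and leaving out KPF replicate 2 for 4 of 9 (Acat2, Hmgcs1, Pmvk and Idi1), where 27.4% did not.

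**Figure D2:**
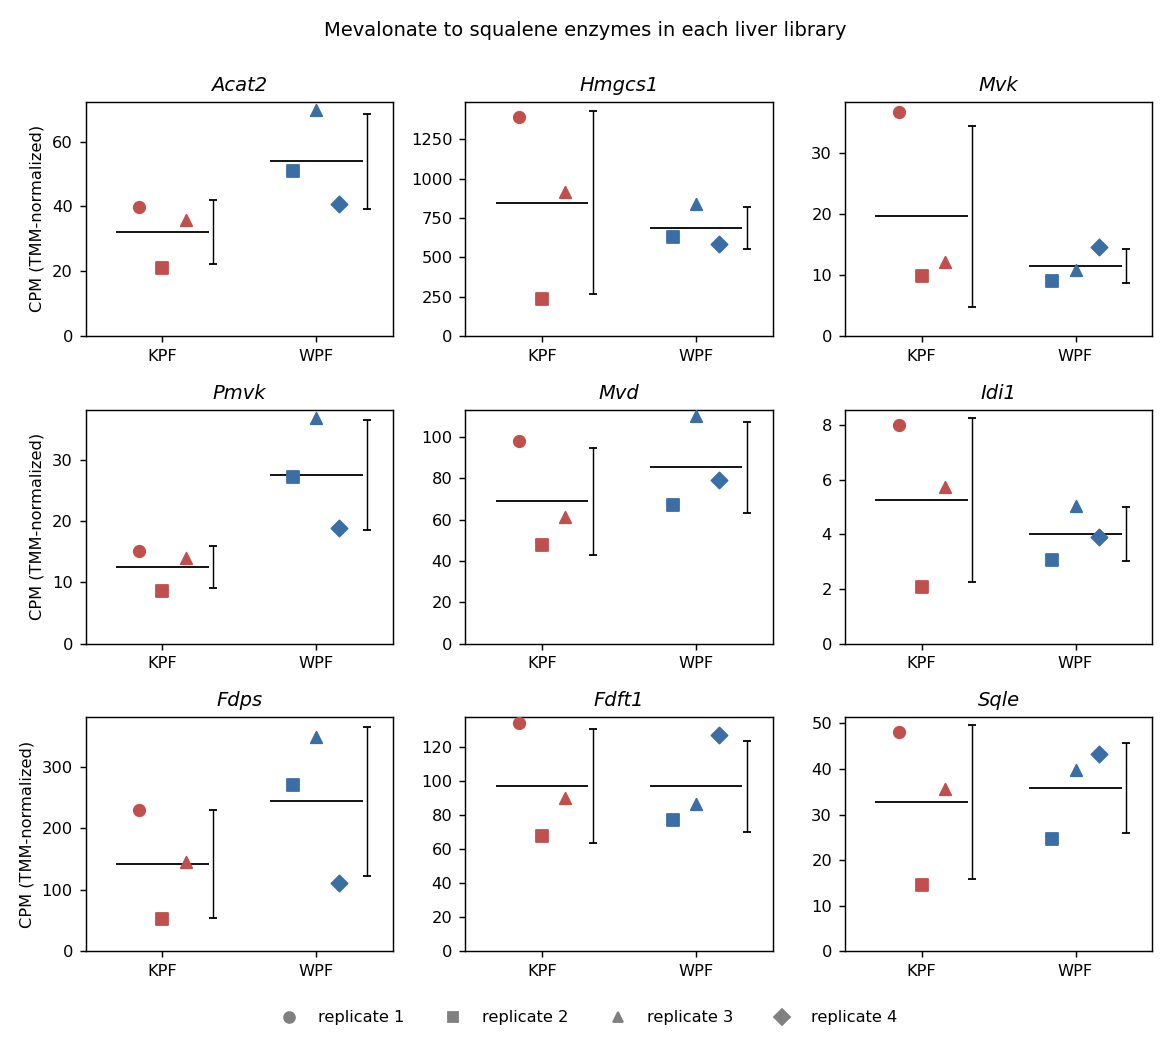
TMM-normalized CPM of each enzyme gene in the 3 KPF and 3 WPF libraries, with the group mean (line) and SD (bar, n = 3). The KPF and WPF points are apart for Acat2 and Pmvk and overlap for the other 7 genes, and KPF replicate 2 (red square) is the lowest point in 8 of 9 panels.

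The route opens with Acat2, the cytosolic thiolase that joins acetyl-CoA units to acetoacetyl-CoA (ENSMUSG00000023832, GRCm39 chr17:13161777-13179634, minus strand). Acat2 reads came to 39.7, 20.9 and 35.8 CPM in KPF replicates 1, 2 and 3, against 51.0, 69.8 and 40.8 CPM in WPF replicates 2, 3 and 4. All KPF libraries lay below all WPF libraries, although KPF replicate 1 and WPF replicate 4 were almost level. Acat2 was called lower in KPF at a log2 fold change of -0.75 (SE 0.31, 95% interval -1.47 to -0.02), with p = 0.0457 and adjusted p = 0.456 from edgeR and an exact two-sided permutation p of 0.1, the smallest that 3 against 3 allows. The call was lost without KPF replicate 2 (-0.52, adjusted p = 0.587, edgeR), and also without KPF replicate 3 (-0.83), WPF replicate 2 (-0.78) or WPF replicate 3 (-0.51). Acat2 has a close relative beside it in the genome, Acat3, at 60.3 to 155 CPM in KPF and 93.8 to 123 CPM in WPF (log2 fold change 0.15, adjusted p = 0.898, edgeR), and how reads shared by them were counted is not given in the sources used here.

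Hmgcs1, the cytosolic HMG-CoA synthase (ENSMUSG00000093930, GRCm39 chr13:120151915-120169796, plus strand), was the most abundant of the 9. Its KPF values were 1390, 235 and 916 CPM, and its WPF values were 632, 839 and 585 CPM. KPF replicates 1 and 3 were above every WPF library and KPF replicate 2 was below every one, with KPF replicate 1 at 5.92 times the level of KPF replicate 2. The log2 fold change was 0.31 (SE 0.57, 95% interval -1.02 to 1.63, adjusted p = 0.856, edgeR). With KPF replicate 2 left out it was 0.75 with an interval of -0.04 to 1.53, and the groups no longer overlapped, but the rule was not met (adjusted p = 0.525, edgeR). Among the 7 promoters searched, only that of Hmgcs1, printed above, held an exact match to TCACNCCAC, the longer sterol element searched. The part of these letters in its levels was not tested.

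Of the kinases and the decarboxylase that follow mevalonate, only Pmvk was called with all 6 libraries. Mvk, mevalonate kinase (ENSMUSG00000041939, GRCm39 chr5:114582330-114598652, plus strand), had 36.8, 9.86 and 12.1 CPM in the KPF libraries and 9.02, 10.9 and 14.6 CPM in the WPF libraries. KPF replicate 1 stood well above the rest, and the other KPF libraries lay inside the WPF range. The log2 fold change was 0.76 (SE 0.50, 95% interval -0.40 to 1.92, adjusted p = 0.601, edgeR). Leaving out KPF replicate 2 gave 1.08, which was called higher (adjusted p = 0.501, edgeR), while leaving out KPF replicate 1 gave -0.07. Mmab, which shares most of the Mvk promoter, had 26.3, 18.6 and 29.3 CPM in the KPF libraries and 14, 15 and 26.2 CPM in the WPF libraries (log2 fold change 0.42, adjusted p = 0.63, edgeR), without the peak of Mvk in KPF replicate 1.

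Pmvk, phosphomevalonate kinase, which adds the next phosphate (ENSMUSG00000027952, GRCm39 chr3:89361848-89376320, plus strand), had the largest difference among the 9 genes. The KPF libraries had 15.1, 8.52 and 13.9 CPM, and the WPF libraries 27.2, 36.8 and 18.9 CPM. The groups did not overlap, and WPF replicate 4 was the WPF library nearest to KPF. Pmvk was called lower in KPF at a log2 fold change of -1.14 (SE 0.32, 95% interval -1.88 to -0.41), with p = 0.00795 and adjusted p = 0.43 from edgeR and an exact two-sided permutation p of 0.1. It was called lower also without KPF replicate 2, at -0.94 (95% interval -1.67 to -0.21, adjusted p = 0.442, edgeR). All 14 alternatives called Pmvk lower, with log2 fold changes of -1.54 to -0.88 and adjusted p between 0.0524 and 0.823.

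Mvd, the decarboxylase that makes isopentenyl diphosphate (ENSMUSG00000006517, GRCm39 chr8:123160340-123170161, minus strand), had KPF values of 97.9, 47.6 and 61.2 CPM and WPF values of 67.1, 110 and 79.2 CPM. The groups were interleaved, and the log2 fold change was -0.31 (SE 0.33, 95% interval -1.08 to 0.46, adjusted p = 0.749, edgeR). It was -0.11 without KPF replicate 2 (adjusted p = 0.922, edgeR).

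**Figure D3:**
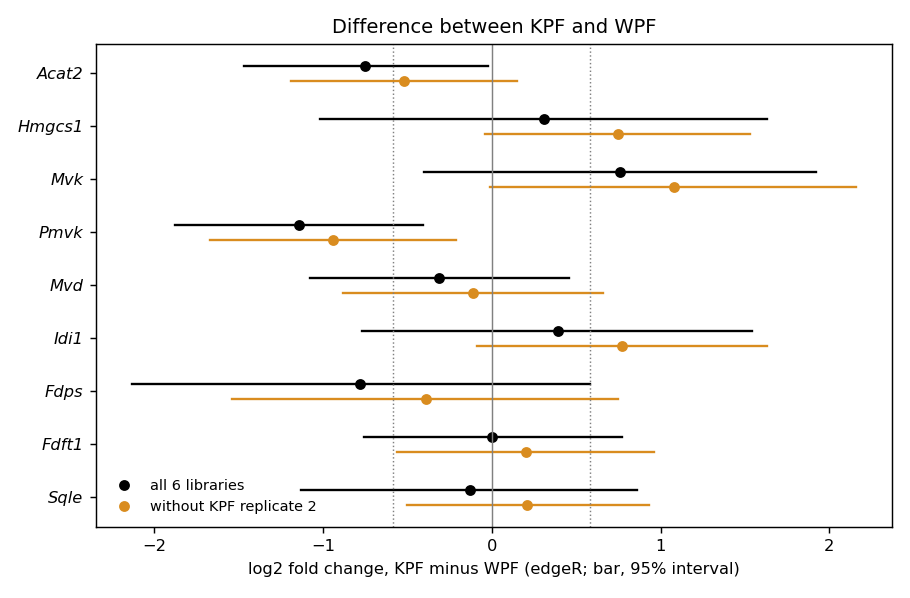
Log2 fold change of KPF against WPF with its 95% interval from edgeR, with all 6 libraries (black) and without KPF replicate 2 (orange); dotted lines mark 1.5-fold. Pmvk is left of 0 in both (-1.14 and -0.94), and Mvk is the farthest to the right (0.76 and 1.08).

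Idi1 and Fdps, which turn the isoprene unit into farnesyl diphosphate, had no call. Idi1, the isomerase (ENSMUSG00000058258, GRCm39 chr13:8935537-8942487, plus strand), rested on only 23 to 83 reads, with KPF values of 8.01, 2.06 and 5.74 CPM and WPF values of 3.07, 5.06 and 3.92 CPM. Its pattern was that of Hmgcs1, with KPF replicates 1 and 3 above and KPF replicate 2 below all WPF libraries. The log2 fold change was 0.39 (SE 0.50, 95% interval -0.77 to 1.54, adjusted p = 0.792, edgeR), and 0.77 without KPF replicate 2 (adjusted p = 0.55, edgeR). For Fdps, farnesyl diphosphate synthase (ENSMUSG00000059743, GRCm39 chr3:89000895-89009266, minus strand), the KPF libraries had 229, 53.0 and 145 CPM, and the WPF libraries 271, 349 and 111 CPM. WPF replicate 4 lay below KPF replicates 1 and 3, so the groups overlapped, with a mean of 142 ± 87.9 CPM in KPF against 244 ± 121 CPM in WPF (SD, n = 3). The log2 fold change was -0.78 (SE 0.58, 95% interval -2.13 to 0.58, adjusted p = 0.648, edgeR) and -0.39 without KPF replicate 2 (adjusted p = 0.797, edgeR).

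At the entry to sterols, Fdft1, squalene synthase (ENSMUSG00000021273, GRCm39 chr14:63382599-63417027, minus strand), had nearly equal group means. It was counted at 134, 68.0 and 89.8 CPM in KPF, against 76.9, 86.7 and 127 CPM in WPF, or 97.2 ± 33.5 and 97.0 ± 26.8 CPM (SD, n = 3). The log2 fold change was 0.00 (SE 0.33, adjusted p = 0.998, edgeR), with an interval of -0.76 to 0.77 that reaches past 1.5-fold either way, and 0.20 without KPF replicate 2 (adjusted p = 0.843, edgeR). Fdft1 shares 774 bases with Ctsb on the opposite strand, a gene with 1963 to 6479 reads, and the strand setting of the counting is not given in the sources used here. Sqle, squalene epoxidase (ENSMUSG00000022351, GRCm39 chr15:59186926-59203041, plus strand), had KPF values of 48.1, 14.6 and 35.5 CPM and WPF values of 24.7, 39.7 and 43.3 CPM. KPF replicates 1 and 2 were the ends of its range, and the log2 fold change was -0.13 (SE 0.43, 95% interval -1.13 to 0.86, adjusted p = 0.921, edgeR), turning to 0.21 without KPF replicate 2 (adjusted p = 0.823, edgeR). The other annotated genes that overlap members of the route, Gm48342 (Hmgcs1), Gm48574 (Idi1), Gm22935 and Gm43738 (both Fdps), had at most 4 reads in any library.

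The lowest and the highest level of most of these genes fell within the KPF group or between it and WPF replicate 3. KPF replicate 2 was the lowest of the 6 libraries for 8 of the 9 genes, all but Mvk, while it was the lowest for 19.9% of all tested genes. The mean of the other libraries exceeded it by 1.51 times for Fdft1, 2.27 times for Acat2, 2.63 times for Pmvk, 3.72 times for Hmgcs1 and 4.17 times for Fdps. KPF replicate 1 was the highest library for 5 of the 9 genes (22.6% of all tested genes), Hmgcs1, Mvk, Idi1, Fdft1 and Sqle, and WPF replicate 3 was the highest for the other 4. The mean centred log2 level of the 9 genes was 0.55, -0.96 and -0.03 in KPF replicates 1, 2 and 3 and -0.03, 0.43 and 0.03 in WPF replicates 2, 3 and 4. KPF replicate 1, highest on this mean, had the lowest Mlxipl level of the 6 libraries, and KPF replicate 2, lowest on it, had the muscle transcripts. Mlxipl was at 182, 709 and 860 CPM in KPF replicates 1, 2 and 3. The part of Mlxipl level or muscle RNA in the levels of the 9 genes was not tested.

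With all 6 libraries, KPF replicate 2 among them, most pairs of these genes had a correlation above 0. Pairs among all tested genes were not computed, so no background stands beside these counts. The Pearson correlation of log2 CPM over the 6 libraries was above 0 for 34 of 36 pairs, with a median of 0.64 and a range of -0.18 (Mvk with Pmvk) to 0.98 (Acat2 with Pmvk). Leaving out KPF replicate 2, 23 of 36 pairs were above 0, the median was 0.41 and the lowest value was -0.57 (Mvk with Pmvk). Acat2 with Pmvk stayed at 0.97, Hmgcs1 with Idi1 at 0.95, Fdft1 with Sqle at 0.85 and Mvk with Fdft1 at 0.84, whereas Acat2 with Fdft1 and Fdps with Fdft1 were at -0.50. So Acat2, Pmvk and Fdps followed one profile, with WPF replicates 2 and 3 high, and Hmgcs1 and Idi1 followed another, with KPF replicates 1 and 3 high. These are descriptions over libraries that share their depth and scaling. Outside the list, the tested genes with the profile most like the mean of the 9 over 6 libraries were Slc39a4, a zinc transporter gene (Pearson 0.991), Rlim, a ubiquitin ligase gene (0.977), Cltc, the clathrin heavy chain gene (0.975), ENSMUSG00000121069 (0.974) and Bmpr1a, a BMP receptor gene (0.974). Slc39a4 had 11.4, 4.12 and 7.98 CPM in the KPF libraries and 8.06, 10.8 and 9.20 CPM in the WPF libraries.

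Ratios between neighbouring steps, which do not depend on the scaling of libraries, kept the groups apart only where Pmvk was involved. Pmvk was already called lower from the same counts, so its ratios are not independent of that call. Ratios of other gene pairs were not computed as a background. Pmvk over Mvk was 0.409, 0.864 and 1.15 in KPF and 3.02, 3.38 and 1.29 in WPF. Every KPF ratio was below every WPF ratio, with KPF replicate 3 close to WPF replicate 4, and the log2 difference was -1.67, or -1.78 without KPF replicate 2 (exact two-sided permutation p = 0.1, 0.4 after Benjamini-Hochberg adjustment over 8 ratios). Mvd over Pmvk was 6.50, 5.59 and 4.40 in KPF and 2.46, 2.98 and 4.20 in WPF, a log2 difference of 0.79 (exact two-sided permutation p = 0.1, adjusted 0.4). The other 6 ratios overlapped between the groups, with exact permutation p between 0.2 and 0.6. Fdps over Idi1 was 28.5, 25.7 and 25.2 in KPF and 88.6, 69.0 and 28.5 in WPF, so WPF replicate 4 had the ratio of the KPF libraries.

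**Figure D4:**
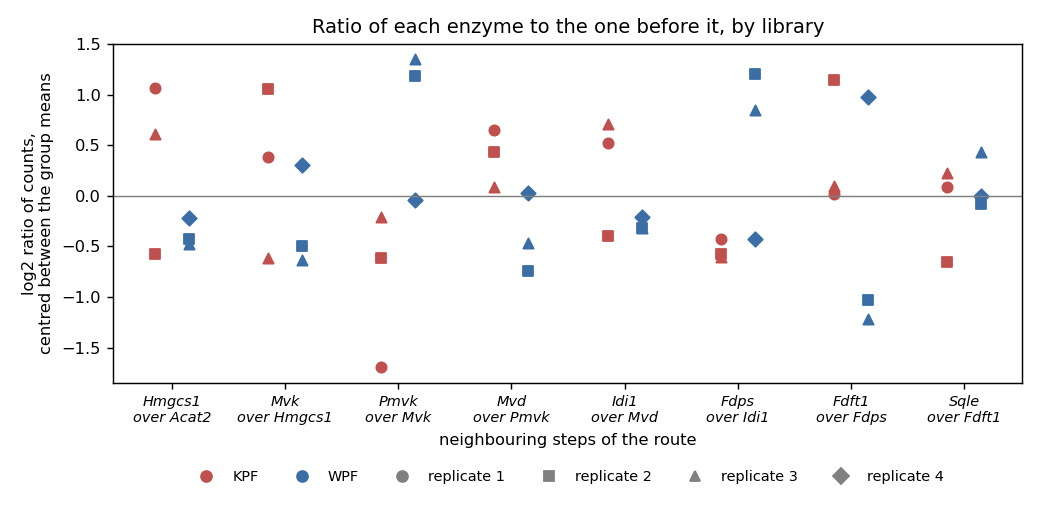
Log2 ratio of counts of each enzyme to the one before it, centred between the group means, by library (red KPF, blue WPF, marker shape the replicate). Pmvk over Mvk and Mvd over Pmvk are the ratios whose groups do not overlap, with log2 differences of -1.67 and 0.79.

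Acly and Acss2, which supply cytosolic acetyl-CoA, had larger log2 differences than any of the 9 genes. Acly, ATP citrate lyase, which splits exported citrate, had KPF values of 37.7, 49.2 and 52.6 CPM and WPF values of 465, 656 and 55.3 CPM. Acss2, which makes acetyl-CoA from acetate, had 30.0, 65.4 and 58.9 CPM in the KPF libraries and 330, 624 and 125 CPM in the WPF libraries. Both were called lower in KPF, at log2 fold changes of -3.08 (adjusted p = 0.43, edgeR) and -2.80 (adjusted p = 0.415, edgeR), and both stayed called without KPF replicate 2 (-3.13 and -3.03). In WPF replicate 4, one of the libraries with high Dbp, Acly was close to its KPF values. KPF replicate 3 had low Dbp (5.94 CPM) and also low Acly (52.6 CPM). The part of clock phase in the levels of these supply genes was not tested. Slc25a1, the citrate carrier, had a log2 fold change of -0.50 (adjusted p = 0.577, edgeR). So 2 of the 3 supply genes were called lower, where 3.98% of all tested genes were. KPF replicate 2 was the lowest library for 0 of these 3 genes.

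Of the steps from lanosterol to cholesterol, 11 of the 13 listed genes were tested, 1 was called lower and 0 higher, with a median log2 fold change of -0.43. Among all tested genes, 3.98% were called lower and 5.83% higher. The called gene was Sc5d, the sterol desaturase, with 126, 141 and 314 CPM in the KPF libraries and 445, 515 and 334 CPM in the WPF libraries (log2 fold change -1.16, adjusted p = 0.43, edgeR). The genes of next smallest p, neither called, were Tm7sf2, a sterol reductase, at -0.50 (adjusted p = 0.491, edgeR), and Erg28, an endoplasmic reticulum scaffold protein, at -0.33 (adjusted p = 0.517, edgeR). Larger log2 fold changes that did not pass were those of Msmo1 (0.71), Cyp51 (-0.69) and Dhcr7 (-0.62), sterol enzymes named for their size after their values were seen. None of the 11 was called without KPF replicate 2, by edgeR and the same rule, and the median was then -0.28. KPF replicate 2 was the lowest library for 6 of the 11.

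**Figure D5:**
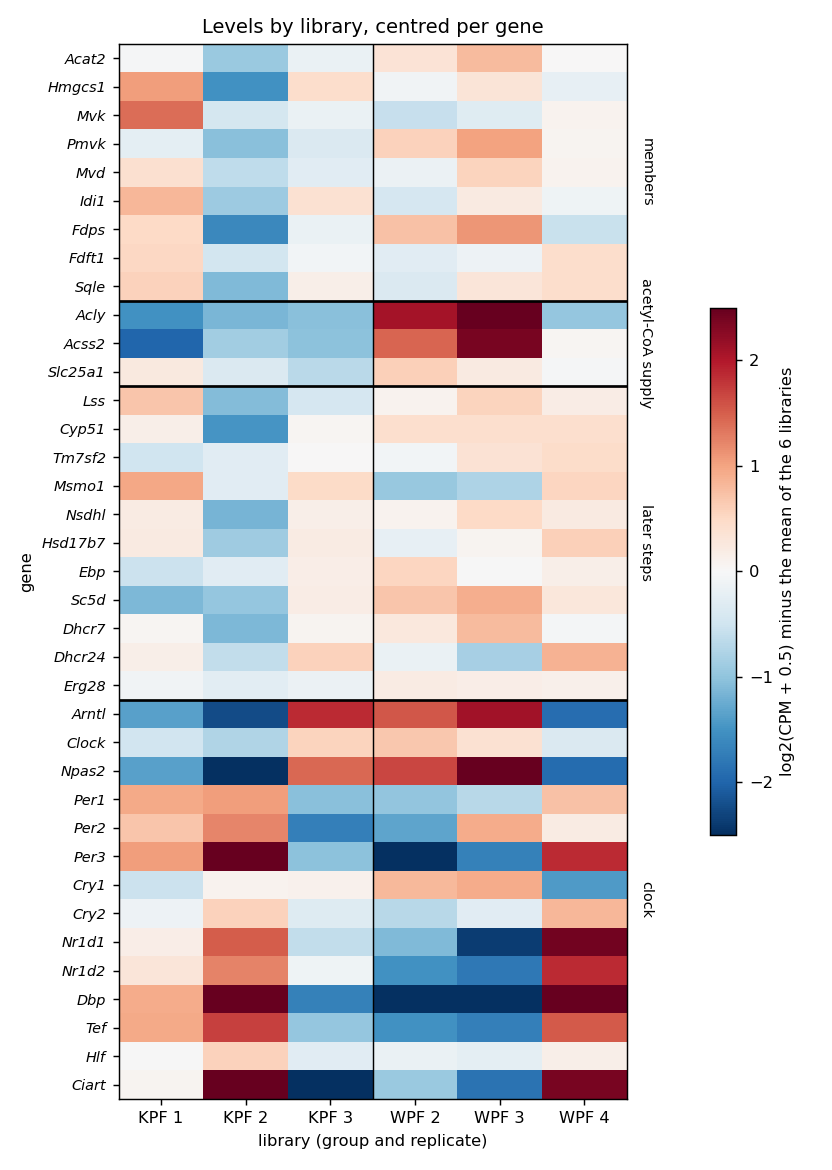
Log2(CPM + 0.5) of each gene minus its mean over the 6 libraries, for the 9 enzymes, the acetyl-CoA supply genes, the later steps and the clock genes. KPF replicate 2 is blue for nearly all of the 9 enzymes, Acly and Acss2 are red in WPF replicates 2 and 3, and the clock genes set KPF replicates 1 and 2 and WPF replicate 4 against the other libraries.

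The regulators of the route gave 1 call. Srebf2, which encodes SREBP-2, had KPF values of 48.1, 29.4 and 38.4 CPM and WPF values of 34.3, 34.2 and 38.7 CPM, with a log2 fold change of 0.11 (adjusted p = 0.87, edgeR). Insig1, which holds SREBP in the endoplasmic reticulum, was called lower in KPF at 177, 159 and 269 CPM against 312, 412 and 370 CPM (log2 fold change -0.85, adjusted p = 0.43, edgeR), and missed the rule without KPF replicate 2 (-0.72). Srebf1, which encodes the lipogenic SREBP-1, had 21.7, 117 and 83.6 CPM in the KPF libraries and 176, 145 and 134 CPM in the WPF libraries. Its log2 fold change of -1.03 was not called (adjusted p = 0.517, edgeR), but the -1.54 without KPF replicate 2 was. Insig2, a relative of Insig1, was at -1.16 and not called (adjusted p = 0.547, edgeR). In all, 1 of the 6 tested regulators was called lower and 0 higher, where 3.98% and 5.83% of all tested genes were. Their median was -0.64, and 1 was called lower without KPF replicate 2, where 4.48% of all tested genes were.

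Of 6 tested genes outside the route that are known to follow sterol depletion, 2 were called lower and 0 higher, with a median log2 fold change of -0.48. Among all tested genes, 3.98% were called lower and 5.83% higher. Of the 6 genes, 4 were below 0 and 2 above. Rdh11, a retinol dehydrogenase, had KPF values of 17.6, 9.23 and 32.6 CPM and WPF values of 68.3, 90.1 and 40.7 CPM (log2 fold change -1.74, adjusted p = 0.43, edgeR) and stayed called without KPF replicate 2 (-1.41). Stard4, a sterol transfer protein, was at -0.71 (adjusted p = 0.456, edgeR) and lost its call without KPF replicate 2 (-0.60). Fads2, a fatty acid desaturase, was at -0.58 (adjusted p = 0.576, edgeR) and was not called. The genes above 0 were Mmab (0.42) and Sec14l2 (0.25), and neither was called.

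Markers of other cells and the clock were read beside these results, since in bulk liver fewer cells of a type and less RNA per cell cannot be told apart. The 7 stellate and fibroblast markers summed to 170 to 711 CPM in KPF and 104 to 126 CPM in WPF, and 5 of 7 were called higher in KPF, led by Col3a1 (log2 fold change 1.54, adjusted p = 0.415, edgeR), Col1a1 (2.22) and Col1a2 (2.17). Over all tested genes 5.83% were called higher. Lrat, a stellate marker of this list, was at -0.35 and was not called (adjusted p = 0.716, edgeR). Des, on the same list, is also a muscle gene and stood at 493 CPM in KPF replicate 2. Of 5 sinusoidal endothelial markers 1 was called higher (Pecam1, 0.75), and the list summed to 79.9 to 86.6 CPM in KPF and 75.7 to 90.3 CPM in WPF. Stab2, on that list, was at -0.41 and was not called (adjusted p = 0.483, edgeR). Without KPF replicate 2, 6 of the 7 stellate and fibroblast markers were called higher, with Dcn added, and 1 of the 5 Kupffer cell markers was (Marco, 0.78). Over all tested genes 5.06% were then called higher, and 4 of the 5 Kupffer cell markers were below 0. With all 6 libraries the Kupffer cell markers had 0 calls (115 to 173 CPM in KPF, 128 to 226 CPM in WPF), as did the 3 erythroid markers (71.4 to 347 CPM and 34.0 to 227 CPM) and the single tested cholangiocyte marker, Krt19 (4 markers, 6.13 to 12.5 CPM and 4.29 to 8.54 CPM). None of the 4 adipocyte markers was tested; they summed to 0.974 to 5.50 CPM in KPF and 0.788 to 1.60 CPM in WPF, and Lep was at 0 in every library. The 4 muscle markers were all called higher in KPF through KPF replicate 2, and 2 were called lower without it. None of the 14 tested clock genes was called by edgeR and this rule, where 9.81% of all tested genes were called either way. Their median log2 fold change was 0.03, and the libraries split within both groups. The clock genes of smallest p were Npas2 (-1.78), Per1 (0.70) and Clock (-0.42). The part of these cell types and of the clock in the levels of the mevalonate genes was not tested.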

How the data were processed

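Liver poly(A) RNA was sequenced in 3 KPF and 3 WPF libraries with paired ends. The deposited table holds 56691 Ensembl genes with the raw read counts of the authors and FPKM values (the count divided by exonic length and by the library's counted reads, which held for 100% of values within 0.0051), and other columns with coordinates and exonic length. Per the submitters' processing notes, cutadapt 1.9.1, HISAT2 2.2.1, HTSeq 0.6.1 and DESeq2 were used with build GRCm39. Symbols were matched through GENCODE M21 (52073 IDs matched, 4618 did not), and no GRCm39 coordinate was combined with the GRCm38.p6 promoters from RefSeq.

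Counts were tested for 10866 genes, those averaging 1 FPKM or more, with edgeR 4.0.16 (R 4.3.3, TMM, quasi-likelihood test, Benjamini-Hochberg adjustment over all tested genes). Single values were also compared by an exact two-sided permutation test over the 6 libraries. DESeq2 1.42.0, limma 3.58.1 on log2(FPKM + 1) and log2(FPKM + 0.1), other filters and scalings, each library left out and a replicate block were the alternatives. The 9 genes, the lists and the markers were chosen with earlier results of these data known. All 9 genes were named, as were up to 3 genes of smallest p per list and the 5 genes most alike in profile. Some listed genes are not reported here. The tests were checked on simulated counts. Replicate numbers 2 and 3 occur in both groups, but the deviations of same-numbered libraries correlated at only 0.045 and -0.017, so the numbers were not taken to pair libraries. Chi-square per gene between libraries of a group was 48.1 or more, so none was a copy of another.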

Additional observations from a re-analysis of the deposited data

How the results depend on the processing

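Genes called lower in KPF numbered 432, but 910 with no expression filter, 205 at a mean FPKM of at least 5, 716 with library totals and 681 with limma on log2(FPKM + 0.1), and 246 to 709 with 1 library left out. Genes called higher numbered 634, but 1576 with no filter, 255 at a mean FPKM of at least 5, 371 with library totals, 238 and 257 with limma on log2(FPKM + 1) and log2(FPKM + 0.1), and 324 to 910 with 1 library left out. The share of calls that were higher was thus 59.5% with TMM, 34.1% with library totals and 30.1% and 27.4% with limma. Adjusted calls numbered 0, but 286 with no filter, 156 with DESeq2, 1 with limma on log2(FPKM + 0.1) and 0 to 5 with 1 library left out.

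Of the 9 genes, 1 to 2 were called lower and 0 to 1 higher with 1 library left out. The direction of Hmgcs1 reversed with limma (-0.14 at both pseudocounts), without KPF replicate 1 (-0.25) and with the replicate block (-0.65). Without KPF replicate 1, Mvk was at -0.07, Idi1 at -0.05 and Fdft1 at -0.30. Fdft1, at 0.00, was also below 0 with no filter (-0.06), library totals (-0.16) and limma (-0.14 at both pseudocounts), at a mean FPKM of at least 5 (0.00 after rounding), without WPF replicate 2 (-0.14) and without WPF replicate 3 (-0.07). With 1 library left out, the values reached as high as 0.75 for Hmgcs1, 1.08 for Mvk, 0.77 for Idi1 and 0.24 for Fdft1, and as low as -0.52 for Sqle. Sqle was above 0 without KPF replicate 2 (0.21) and without WPF replicate 4 (0.01). With the replicate block, which shares only a number between libraries, Idi1 was at -0.17, Fdft1 at -0.06 and Fdps at -1.81 (called lower), and 3 of the 9 genes, 551 genes in all, were called lower and 680 higher. The cause of these changes was not tested. Idi1 was not tested at a mean FPKM of at least 5. Pmvk and Acat2 kept their direction under all 14 alternatives, Acat2 with its call in 10 of them, and Mvd and Fdps also stayed below 0. Idi1 rested on 23 to 83 reads, Pmvk on 95 to 517 and Mvk on 103 to 381, the lowest read numbers of the 9 genes, while the widest SEs were those of Fdps (0.58) and Hmgcs1 (0.57), which had 591 reads or more.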

Other observations

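The branches that leave the route at farnesyl diphosphate had no call. Of 10 listed genes of prenylation, dolichol and ubiquinone synthesis, 8 were tested and 0 were called, with a median log2 fold change of 0.03. Among all tested genes, 9.81% were called either way. Among the genes of smallest p were Nus1, a subunit of the dolichol-forming prenyltransferase, with 47.8, 26.4 and 36.3 CPM in the KPF libraries and 28.8, 32.5 and 31.9 CPM in the WPF libraries (log2 fold change 0.25, adjusted p = 0.735, edgeR), and Pdss1, of the ubiquinone side chain (0.25, adjusted p = 0.759). KPF replicate 2 was the lowest library for 2 of these 8 genes.

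Relatives of the enzymes that work outside the cytosolic route were read beside them. Acat1, the mitochondrial thiolase, was at 0.21 on the log2 scale and was not called (adjusted p = 0.831, edgeR). Idi2 had 0 reads in every library.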
